A study of Caenorhabditis elegans with 2 samples.

Results

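Weak ChIP-seq peaks of tagged LIN-32 that appeared in both biological replicates of one embryo experiment were examined in Caenorhabditis elegans. They come from relaxed lists that the authors deposited as holding background beside peaks, so a weak peak is not by itself a binding site. Of 26004 nuclear peaks called on both replicates together, 24004 ranked below the 2000 strongest by the deposited peak signal. Weak shared peaks were chosen by these signal ranks: each is a peak whose summit lay within 100 bp of a summit among the 5000 strongest nuclear peaks of replicate 1 and also of replicate 2, and more than 500 bp from any tRNA gene. The match held in replicate 1 for 2749 peaks, in replicate 2 for 2667 and in both for 217. After 5 peaks beside tRNA genes were left out, 212 weak shared peaks remained, 0.883% of the peaks of those ranks. All samples were mixed-stage, mixed-sex whole embryos of strain OP740, obtained by egg bleaching at a labelled age of 3 h, with 2 replicates in 1 group. The strain carries the transgene wgIs740, which encodes LIN-32 with TY1, EGFP and 3xFLAG tags beside an unc-119(+) rescue gene, in an unc-119 mutant background (tm4063). Chromatin was fragmented by sonication and recovered with an anti-GFP antibody. The lists therefore describe the tagged protein in whole embryos, averaged over all cells that make it.

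LIN-32 is a basic helix-loop-helix (bHLH) transcription factor of the Atonal family, whose members give cells a neural fate in many animals. In the worm it acts in the lineages of touch receptor neurons, ciliated sensory neurons and neurons of the male tail. Such factors pair with a broadly expressed bHLH partner, HLH-2 in the worm, and bind E-boxes, short palindrome-like sequences of the form CANNTG. Atonal-type factors are known for a preference for the middle letters that give CAGATG, whose other strand reads CATCTG, and CAGCTG. The irreproducible discovery rate (IDR) procedure keeps peaks whose ranks are consistent between replicates, and the weak shared peaks all lie below the set it kept here.

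The sequences that follow show the letters at the summits of weak shared peaks, 50 bases to each side of the pooled summit, on the plus strand of WBcel235. Capitals mark an Atonal-type hexamer, which is CAGATG or its other strand CATCTG or the palindrome CAGCTG. The first 6 are from the strongest weak shared peaks with such a hexamer among the chromosomes from which sequence is shown, and the last 2 from the strongest without one, which is the commoner case. Each is named by its nearest protein-coding gene.
tric-1B.1, chrII:12269096-12269196: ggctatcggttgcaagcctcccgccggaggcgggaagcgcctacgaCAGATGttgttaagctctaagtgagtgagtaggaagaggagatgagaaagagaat
Y73B6BL.29, chrIV:6321810-6321910: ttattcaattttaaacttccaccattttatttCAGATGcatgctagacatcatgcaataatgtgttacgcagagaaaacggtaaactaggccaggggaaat
C06E1.1, chrIII:8605193-8605293: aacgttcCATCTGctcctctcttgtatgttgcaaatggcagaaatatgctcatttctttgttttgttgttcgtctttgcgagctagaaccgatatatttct
ncl-1, chrIII:7716743-7716843: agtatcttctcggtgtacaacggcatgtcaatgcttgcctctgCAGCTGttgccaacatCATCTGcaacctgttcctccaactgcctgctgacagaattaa
F56B3.4, chrIV:792255-792355: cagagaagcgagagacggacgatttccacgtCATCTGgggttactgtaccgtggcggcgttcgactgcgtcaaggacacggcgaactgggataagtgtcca
C08F1.11, chrII:1784475-1784575: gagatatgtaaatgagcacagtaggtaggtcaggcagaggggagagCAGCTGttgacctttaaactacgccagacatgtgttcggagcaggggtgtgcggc
dolk-1, chrIII:11933647-11933747: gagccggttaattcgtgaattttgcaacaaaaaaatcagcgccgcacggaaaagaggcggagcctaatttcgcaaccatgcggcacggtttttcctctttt
fbxa-141, chrX:14513695-14513795: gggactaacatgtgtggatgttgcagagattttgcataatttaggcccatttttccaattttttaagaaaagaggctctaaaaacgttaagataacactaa

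In the 6 windows that held it, the hexamer was not at a fixed place. Its centre lay 1 bp before the summit at tric-1B.1 and C08F1.11 and 40 bp before it at C06E1.1, in the order of the plus strand. The summit beside ncl-1, a growth regulator of the nucleolus, had both hexamers and lay in an exon of the neighbouring gene C03B8.3. The peak at tric-1B.1, a gene for an intracellular cation channel, lay outside protein-coding transcripts, 2901 bp upstream of the gene. The window at dolk-1, a dolichol kinase gene, held no E-box of any class and lay 58 bp upstream of the gene. The sequences are those of the RefSeq WBcel235 assembly and the annotation is from Ensembl.

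The rule chose the peaks by their ranks and matches, so the values in this and the next paragraphs on signal describe the choice and were not tested. The pooled signal of the weak shared peaks ran from 47.04 to 70.4 with a median of 65.9, on the authors' scale, which is not stated. The 866 IDR peaks more than 500 bp from tRNA genes had pooled signals from 92.4 to 853 and a median of 127. The deposited −log10 q-value ran from 0.165 to 0.891 in weak shared peaks, and from 1.92 to 2.95 in those IDR peaks. The ranges did not overlap on either value. For the signal, the limit on rank fixes this. Among weak shared peaks the −log10 q-value fell almost in step with rank, from 0.891 at the strongest to 0.165 at the weakest. The gap in q-value is thus not a finding separate from the limit on rank. Of the 866 IDR peaks, 819 met the same match rule in both replicates. These IDR peaks spanned pooled ranks 1 to 1042, in an IDR list of 1042 peaks. Each contrast with IDR peaks below is therefore also a contrast of strong with weak pooled rank.

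Sharing between replicates fell away quickly with pooled rank. Among pooled peaks of the first 1000 ranks, 95.9% had a summit in the 5000 strongest of both replicates, and among the next 1000 ranks 54.8% had one. The share was 16.3% between ranks 2000 and 3000, which is 163 peaks, then 4.6% between ranks 3000 and 4000, which is 46 peaks. From there to rank 5000 it was 0.7%, or 7 peaks, and only 1 peak beyond rank 5000 qualified. These counts include the 5 peaks beside tRNA genes. In a single replicate the fall was slower, since 54.4% of peaks between ranks 2000 and 3000 matched in replicate 1 and 52.9% in replicate 2. A pooled rank and a match in a replicate are linked by construction, since the pooled list was called on the reads of both. How many matches unrelated summits would give was not tested.

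**Figure D1:**
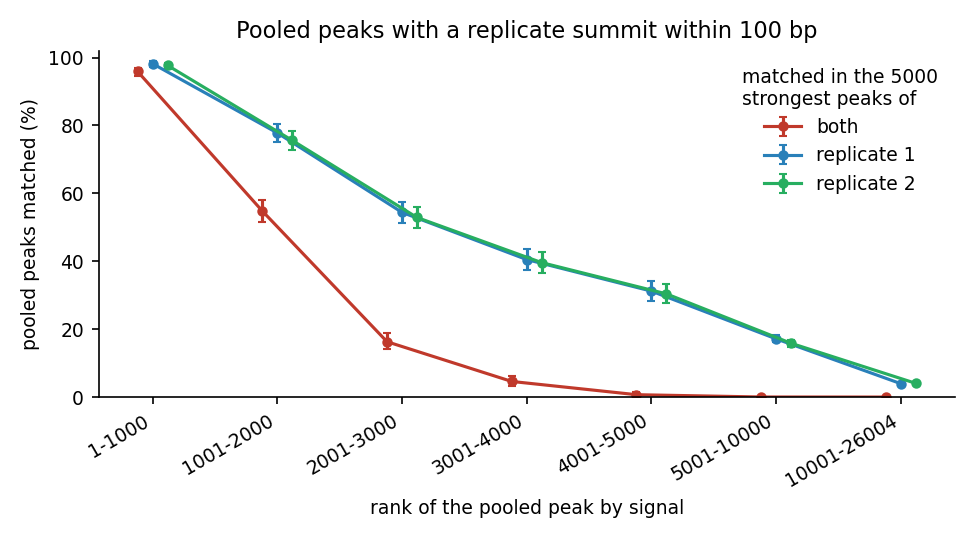
Percent of pooled peaks (vertical axis) with a summit within 100 bp in the 5000 strongest peaks of both replicates, of replicate 1 and of replicate 2, by rank of the pooled peak (horizontal axis), with exact 95% binomial intervals for counting error. The line for both replicates drops to 16.3% between ranks 2000 and 3000. The line of each replicate, which includes peaks matched in both, stays over 50% there.

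Within each replicate most weak shared peaks lay toward the weak end of the accepted range, with 12 of 212 at rank 2000 or better in replicate 1 and 17 in replicate 2. Replicate 1 ranks ran from 1091 to 4967 with a median of 3601, and replicate 2 ranks from 830 to 4931 with a median of 3650.5. Replicate 1 signals ran from 31.0 to 48.3 and replicate 2 signals from 30.0007 to 53.998, each on the scale of its own list. Replicate 1 gave the better rank for 107 peaks and replicate 2 for 105. Only 3 of the 212 ranked among the 2000 strongest of both replicates, and 24 ranked beyond 4000 in both. The matched summits of the replicates lay 0 to 190 bp apart, with a median of 42.5 bp, and 124 pairs lay within 50 bp. Each weak shared peak matched a different peak in each replicate.

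**Figure D2:**
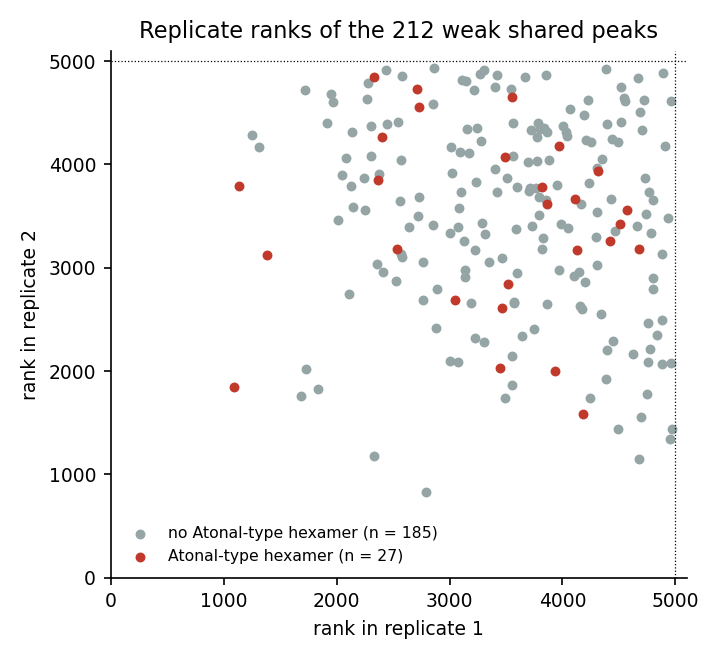
Rank of each of the 212 weak shared peaks in replicate 1 (horizontal axis) and replicate 2 (vertical axis), 1 being the strongest, with peaks that hold an Atonal-type hexamer within 50 bp of the summit in red (27) and the others in grey (185). Dotted lines mark the limit of 5000 set by the rule, and most points lie beyond rank 2000 on both axes.

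The limits of the rule cut through a continuum. On pooled rank, the first weak shared peak lay at dolk-1 at rank 2003 with a signal of 70.4, and the last shared peak above the limit lay nearest Y46G5A.47 at rank 1991 with a signal of 70.6. On summit distance, the farthest accepted match was 100 bp at W05B5.1, and the nearest rejected, at pgp-5, lay just past that distance. On replicate rank, the last accepted was 4967 at ajm-1 and the first rejected 5011 at shc-2. Without any limit on replicate rank, 5611 pooled peaks of these ranks away from tRNA genes had a summit within 100 bp in both lists.

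The 20 strongest weak shared peaks by pooled signal spanned 70.4 to 69.6 and ranks 2003 to 2073, a narrow range. Of these, 8 lay in promoters, 2 in exons, 6 in introns and 4 outside protein-coding genes, and 3 held an Atonal-type hexamer. Their replicate ranks ran from 2142 to 4754 in replicate 1 and from 1146 to 4844 in replicate 2. Several lay at well-known genes. At dyf-3, a gene needed to build sensory cilia, the summit was 70 bp upstream of the gene and the peak ranked 4678 in replicate 1, with a signal of 31.5, and 1146 in replicate 2, with a signal of 46.6. That peak was thus near the limit in replicate 1 and well inside it in replicate 2. Its matched summits lay 110 bp apart in the replicates, so they need not mark 1 site. At unc-84, which encodes a SUN protein of the nuclear envelope that acts in nuclear migration, the summit was 187 bp downstream of the 5′ end, with rank 3100 and signal 35.3 in replicate 1 and rank 3730 and signal 32.4 in replicate 2. At daf-16, the FOXO transcription factor of insulin signalling, the summit lay in an intron, with rank 4626 and signal 31.6 in replicate 1 and rank 2167 and signal 37.9 in replicate 2.

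The other 17 of the 20 lay nearest to dolk-1, tric-1B.1, fbxa-141 (an F-box gene), nhr-66 (a nuclear hormone receptor), gmeb-2, pif-1 (a DNA helicase), ephx-1 (a guanine nucleotide exchange factor), syx-2 (a syntaxin), atg-2 (an autophagy gene), and to Y73B6BL.29, Y75B8A.25, F38E9.6, C31H2.3, C06E1.1, Y43F8C.5, C06E7.4 and F13E9.11. The nearest gene is a label of place and was not shown to be a target. The pif-1 summit lay in an intron of Y18H1A.15, 2476 bp from the 5′ end of pif-1.

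The peaks with the best support in both replicates were another set. The 10 with the best worse rank had worse ranks of 1757 to 2881, pooled ranks of 2081 to 4019, and none was among the 20 above. The peak at nhr-95, a nuclear hormone receptor, led them with rank 1683 and signal 41.9 in replicate 1 and rank 1757 and signal 40.3 in replicate 2, and its summit lay 59 bp downstream of the 5′ end. At chaf-2, a subunit of a chromatin assembly factor, the ranks were 1836 and 1830 in replicates 1 and 2, with signals of 40.9 and 39.8. At cyd-1, the D-type cyclin that drives entry into the cell cycle, the ranks were 1091 and 1844 and the signals 48.3 and 39.7. These 3 are the peaks inside the 2000 strongest of both replicates.

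The cyd-1 peak, chrII:12986178-12986561, lay in an intron 1853 bp upstream of the nearest 5′ end, and was the 1 of the 10 with an Atonal-type hexamer, a CAGCTG. Its matched summits lay 157 bp apart in the replicates, so they need not mark 1 site. The same holds for Y44A6D.1, where the ranks were 1726 and 2022 and the summits 190 bp apart. The F57G12.1 peak had rank 830 and signal 53.998 in replicate 2, the only rank within 1000 in either list, and rank 2796 and signal 36.4 in replicate 1. The other 5 lay nearest to T25D10.4, vab-1 (the Eph receptor of the worm), sel-15, tlk-1 (a Tousled-like kinase) and dnj-13 (a DnaJ chaperone).

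Position was not used by the rule. Each summit was placed in a promoter if it lay up to 1000 bp before or 200 bp after the 5′ end of a protein-coding gene, and otherwise in an exon, an intron or outside protein-coding genes. Weak shared peaks lay in promoters in 88 of 212 cases, 41.5% (exact 95% interval 34.8 to 48.5), in exons in 29 or 13.7% (9.36 to 19.1), in introns in 51 or 24.1% (18.5 to 30.4), and outside in 44 or 20.8% (15.5 to 26.8). IDR peaks had 46.8%, 4.27%, 20.3% and 28.6% in the same order, and the genome holds 26.1%, 21.6%, 27.1% and 25.15%. Exons were the clearest contrast, with a share 9.41 percentage points higher in weak shared than in IDR peaks (95% Newcombe interval 5.13 to 14.8). The outside share was -7.88 points different (-13.7 to -1.25), thus lower in weak shared peaks. The exon difference was 5.16 points with the limit at pooled rank 3000 and 4.06 with the 3000 strongest peaks of each replicate. Both of these intervals included 0. The exon difference was 15.8 to 24.6 points when a match in a single replicate was enough. The interval of the outside difference included 0 in 3 settings, with a summit distance of 50 bp (-7.21 points), with promoters widened to 2000 bp (-3.96) and with the 3000 strongest peaks (-11.97). For promoters the difference was -5.26 points (-12.5 to 2.24) and for introns 3.73 points (-2.23 to 10.4), and both intervals include 0. The promoter interval left out 0 in 4 settings. It did so when a match in replicate 2 was enough (-11.9 points) and when one in replicate 1 was enough (-16.99). The other settings were the 8000 strongest peaks of each replicate (-10.7) and promoters narrowed to 500 bp (-7.98). Intervals here cover counting error over peaks, which are not replicates of a condition.

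**Figure D3:**
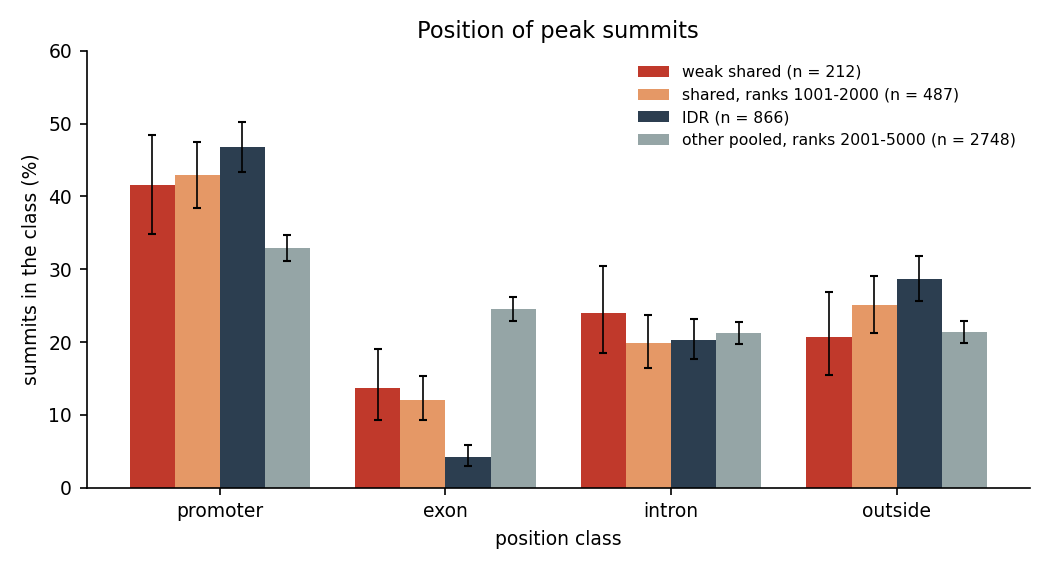
Percent of summits in each position class (vertical axis) for weak shared peaks, shared peaks from the second 1000 pooled ranks outside the IDR set, IDR peaks, and other pooled peaks between ranks 2000 and 5000, with exact 95% binomial intervals. Exon shares stand at 13.7% in weak shared peaks, 4.27% in IDR peaks and 24.5% in the other pooled peaks.

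Beside the 2748 pooled peaks between ranks 2000 and 5000 that lacked a match in at least 1 replicate, weak shared peaks had a higher promoter share, by 8.85 points (2.16 to 15.8), and a lower exon share, with a difference of -10.8 points (-15.1 to -5.26). The 2 sets differ in pooled rank, however, with medians of 2490 in weak shared and 3597.5 in other peaks. Between ranks 2000 and 2500, where ranks are alike, 35.2% of 108 weak shared and 33.6% of 384 other peaks lay in promoters, a difference of 1.59 points (-8.08 to 12.0). The exon difference there was -3.13 points (-10.4 to 5.81). At these ranks, a range chosen after the data were seen, neither contrast was detectable with 108 weak shared peaks. Up to rank 3500 the exon difference was -8.27 points (-13.1 to -2.21) and the promoter difference 5.55 points, with an interval that included 0. The promoter interval also included 0 with the 3000 strongest (8.21 points) or 8000 strongest peaks (2.98) and with wider promoters (5.71), and the exon interval with the 3000 strongest (-15.5). When a match in replicate 1 alone was enough, both directions turned, to -3.42 points for promoters and 3.39 points for exons (0.283 to 6.54). Shared peaks of the second 1000 pooled ranks outside the IDR set, 487 in all, had 42.9% in promoters and 12.1% in exons, and the weak shared shares differed from these by -1.41 points (-9.21 to 6.59) and 1.56 points (-3.54 to 7.45).

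Among the 88 promoter peaks, 64 summits lay upstream of the nearest 5′ end and 24 downstream, and 46 lay within 200 bp of it. The nearest 5′ end was not always the one that placed the summit in a promoter, since these distances reached 786 bp downstream. Of all 212, 145 lay within 2000 bp of a 5′ end, 68.4% against 72.2% of IDR peaks. Weak shared summits lay upstream of the nearest 5′ end in 54.2% of cases and IDR summits in 67.3%. They lay within the span of a protein-coding gene in 118 cases, 55.7%, against 36.1% of IDR peaks and 63.1% of other pooled peaks. The exon peaks include some in genes with known roles, chosen here after their values were seen: pha-4, the FoxA factor of pharynx identity, hmr-1, the classical cadherin, glh-1, a germline RNA helicase, and unc-45, a myosin chaperone. The pha-4 peak had pooled rank 2219, with ranks 4839 in replicate 1 and 2347 in replicate 2. The hmr-1 peak lay 4751 bp downstream of the nearest 5′ end at pooled rank 2663, with ranks 4201 and 2867.

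Few weak shared peaks carried the sequence that Atonal-type factors prefer. Either hexamer, read on both strands up to 50 bp from the summit, occurred in 27 of 212 weak shared peaks, 12.7% (8.56 to 17.99), against 317 of 866 IDR peaks, 36.6% (33.4 to 39.9). The difference was -23.9 points (-28.9 to -17.8). Over all 23797 pooled peaks ranked below 2000 and away from tRNA genes the share was 8.85%, and over windows of the same length across the genome it was 6.06%. In equally long windows 500 bp to either side of the weak shared summits it was 5.9% (3.85 to 8.58, 25 of 424 flanks), so the summits themselves held the hexamers 6.84 points more often. A match is a description of letters and not a shown binding site.

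Being found in both replicates did not go with a detectable gain in these hexamers below pooled rank 2000. Of the other pooled peaks between ranks 2000 and 5000, 320 of 2748 held one, 11.6%, and weak shared peaks of those ranks differed by 1.15 points (-2.90 to 6.46). Between ranks 2000 and 2500 the shares were 14.8% in weak shared and 14.6% in other peaks. Shared peaks of the second 1000 ranks held a hexamer in 97 of 487 cases, 19.9%, and weak shared peaks stood -7.18 points from them (-12.56 to -1.05). Within the weak shared set, the 106 stronger peaks held it in 15 cases and the 106 weaker in 12.

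**Figure D4:**
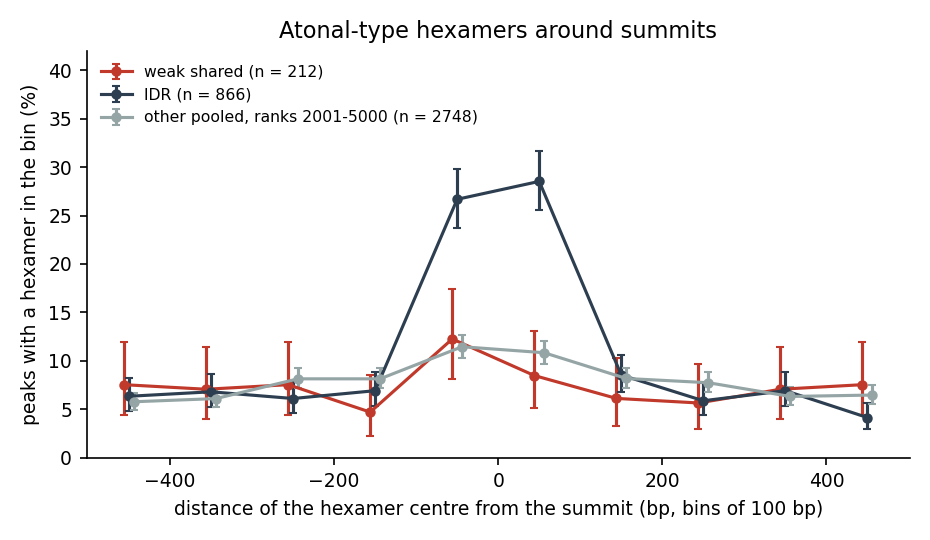
Percent of peaks with an Atonal-type hexamer (vertical axis) in 100 bp bins by distance of the hexamer centre from the summit (horizontal axis, bp), for weak shared, IDR and other pooled peaks between ranks 2000 and 5000, with exact 95% binomial intervals. The 2 central bins reach 12.26% and 8.49% in weak shared peaks and 26.7% and 28.5% in IDR peaks.

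By 100 bp bins, 12.26% of weak shared peaks held the hexamer just before the summit and 8.49% just after it, and 4.72% to 7.55% held it in each of the other 8 bins. In the same central bins 26.7% and 28.5% of IDR peaks held it. By position, the hexamer occurred in 7 of 88 promoter peaks (7.95%), 5 of 29 exon peaks (17.2%), 6 of 51 intron peaks (11.8%) and 9 of 44 outside peaks (20.5%). These shares rest on few peaks and their intervals overlap. In IDR peaks the shares were 30.6%, 35.1%, 35.2% and 47.6% in the same order.

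The lower share held for both hexamers and for some other E-boxes, in comparisons added after values were seen. CAGATG occurred in 17 weak shared peaks, 8.02% against 25.9% of IDR peaks, a difference of -17.8 points (-22.1 to -12.59). CAGCTG occurred in 12, or 5.66% against 13.0%, a difference of -7.39 points (-10.8 to -2.90), and 2 peaks had both. CACCTG was at 3.3% in weak shared summits, the same as in their flanks, against 13.2% in IDR summits. The difference was -9.86 points (-12.8 to -5.91). CATATG stood at 0.943% against 5.66%, and CAAGTG at 2.36% against 6.93%. For CACATG (6.13% against 6.24%) and CACGTG (3.3% against 1.96%) the intervals of the difference included 0. Any E-box occurred in 34.9% of weak shared summits, against 34.2% of their flanks and 63.7% of IDR summits.

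Other repeats of letters were also more frequent at the summits than in their flanks. GAGAGA, searched on both strands, occurred in 14.2% of weak shared summits and 4.48% of their flanks, against 22.6% of IDR summits, 14.1% of other pooled peaks and 5.18% of genome windows. CACACA occurred in 15.1% of weak shared summits and 5.19% of their flanks, against 20.4% of IDR summits and 9.35% of other pooled peaks. The difference from other pooled peaks was 5.81 points (1.45 to 11.4). The 2 sets differ in pooled rank, as said above, and CACACA was not compared at like rank. These 2 motifs were picked after hexamer counts were seen. The GC content was 45.1% ± 7.88 (SD over 212 peaks) at weak shared summits and 37.3% ± 8.91 in their flanks, against 49.1% ± 7.20 at IDR summits and 44.9% ± 8.26 at other pooled summits. Its part in the motif shares was not tested.

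Weak shared peaks lay beside IDR peaks more often than other pooled peaks of their ranks did. An IDR summit lay within 2000 bp of 28 of the 212, 13.2%. Between ranks 2000 and 5000 the share was 13.3%, against 5.49% of other pooled peaks, a difference of 7.78 points (3.74 to 13.1). Between ranks 2000 and 2500 it was 16.7% against 5.73%, a difference of 10.9 points (4.45 to 19.3). When a match in a single replicate was enough, the difference was 0.575 to 1.07 points, and with the 8000 strongest peaks of each replicate it was 2.01 points, and these intervals included 0. So did that with the limit at pooled rank 3000, where the difference was 5.92 points. Only 3 lay within 500 bp of an IDR summit and 13 within 1000 bp, the closest being 199 bp at gpb-1, a G-protein beta subunit gene. Of the 27 hexamer-bearing peaks, 3 had an IDR summit within 2000 bp. Most peaks of the whole set likewise had none, and the 2 shares were not compared.

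A gene was counted when a summit fell between 2000 bp before and 500 bp after one of its annotated 5′ ends. By this window 124 weak shared peaks lay at 164 protein-coding genes, 0.821% of 19973, and the other 88 at none. IDR peaks lay at 829 genes, 4.15%. In 18 genes both kinds occurred, which is 10.98% of the 164 and 2.17% of the 829. Among these was unc-84, with a weak shared peak of signal 69.7 beside an IDR peak of 157. Its partner unc-83, the outer nuclear membrane protein of the same nuclear migration pathway, had a weak shared peak of signal 60.6, at ranks 4160 and 3613 in replicates 1 and 2, and an IDR peak of 161. The homeobox gene unc-62, a Meis cofactor, had a weak shared peak of 68.1, only 1 bp from an annotated 5′ end, and an IDR peak of 204. The gene unc-83 was named after its values were seen.

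Cell-cycle genes were the list with most weak shared genes. Of 32 listed genes 6 had one, 18.8%, against 0.821% of all genes, and 8 had an IDR peak, 25% against 4.15% of all genes. The list was drawn up with the IDR result for cell-cycle genes known, so the count is not independent evidence. The 4 with the strongest peaks were cdc-25.2, a phosphatase that activates cyclin-dependent kinase, at pooled signal 69.4, cdc-6, which licenses replication origins, at 69.04, the phosphatase gene cdc-14 at 68.4 and cyd-1 at 68.1. The other 2 were cya-1, cyclin A, and wee-1.3, an inhibitory kinase. In replicates 1 and 2 the cdc-25.2 peak ranked 3228 and 2316, the cya-1 peak 4383 and 4923, and the wee-1.3 peak 3592 and 3373. The cdc-6 peak ranked 3559 and 4082 and lies between cdc-6 and acin-1, its nearest gene, and the cdc-14 peak is likewise shared with ttc-4. Only cdc-25.2 and cya-1 also had an IDR peak in the window. An IDR summit lay 1491 bp from the cyd-1 peak, outside the gene window of cyd-1. Of the 6 peaks, only that at cyd-1 had an Atonal-type hexamer.

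The other list counts stand beside the same shares over all genes, 0.821% with a weak shared peak and 4.15% with an IDR peak. Ribosomal protein genes had weak shared peaks in 4 of 78 cases, 5.13%, at rpl-11.2, rpl-7A, rpl-34 and rps-16, and IDR peaks in 16, 20.5%. The rpl-34 peak lay nearest to ppm-1.H and the rps-16 peak nearest to fib-1, and the rpl-7A peak was counted for set-21 as well. The rpl-11.2 peak lay 682 bp from an IDR summit and is among those near lin-32 described below. Epidermal and cuticle genes had weak shared peaks in 3 of 35, 8.57%, at ajm-1, an apical junction protein, and at egl-18 and elt-6, neighbouring GATA factors of the epidermis. The elt-6 summit lay in an intron of egl-18, so 1 locus holds both. IDR peaks also lay at 3 of these 35 genes, 8.57%, ajm-1 among them. Homeobox genes had 2 of 98, 2.04%, at unc-62 and ceh-39, and nuclear hormone receptors 2 of 269, nhr-95 and nhr-71, which is 0.743% and near the background. Neuronal identity factors had 1 of 50, ces-2, which is 2.0%, and 11 with an IDR peak, 22%. Weak shared peaks are fewer than IDR peaks, and the difference between these list shares was not tested. The Notch and bHLH lists shared ref-1, a bHLH target of Notch signalling, the ciliated neuron list had dyf-3, and the neuropeptide list had nlp-15. The dyf-3 peak was counted for pdhb-1 as well.

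The other 15 of 25 lists had no weak shared gene. Among them were axon guidance and adhesion (0 of 44, 11 with an IDR peak), the Wnt pathway (0 of 30, 9 with an IDR peak), histones (0 of 50, 10 with an IDR peak), proneural bHLH genes (0 of 13), touch receptor genes (0 of 17), pan-neuronal genes (0 of 32) and collagens (0 of 173). A count of 0 allows up to 6.82% of axon guidance genes and 17.6% of touch receptor genes, so these lists are too short to tell from the 0.821% of all genes. The remaining 8 lists, neurotransmitter, glia, body muscle, intestine, pharynx, germline, heat shock and matrix genes, held 16 to 31 genes each.

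The weak shared peaks lay on all 6 nuclear chromosomes, at 1.48 to 3.01 per Mb, against 2.11 over the genome and 8.64 for IDR peaks. Chromosome II held most, 46, and chromosome IV fewest, 26. The X chromosome held 44, 20.8%, the same share as the 20.8% of IDR peaks, with a difference of -0.0305 points (-5.70 to 6.46), and 15.5% of other pooled peaks lay there. The difference from IDR peaks was -5.12 to -4.37 points when a match in a single replicate was enough, and its intervals left out 0. The 212 peaks had 210 different nearest genes, since myrf-2, a myelin regulatory factor homologue, and apl-1, the amyloid precursor protein homologue, each had 2. Before the tRNA criterion, 5 of 217 weak shared peaks had a tRNA gene within 500 bp, 2.3%, against 176 of 1042 IDR peaks, 16.9%, a difference of -14.6 points (-17.3 to -10.9). The share of other pooled peaks was 1.29%.

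Around lin-32 itself, 3 weak shared peaks lay within 20000 bp, nearest to vha-15, rpl-11.2 and AH9.1, the closest at 9275 bp. The transgene carries lin-32 sequence, so native and transgene reads cannot be told apart there. No weak shared peak lay within 20000 bp of hlh-2, the bHLH partner gene, or of unc-86 and mec-3, transcription factor genes of the touch neuron lineage. The nearest were 163610, 388907 and 407246 bp away.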

How the data were processed

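LIN-32::EGFP ChIP-seq peaks of 2 biological replicates of C. elegans embryos were taken from 4 deposited peak lists. Per the deposited notes, 1 list was called on each replicate and 1 on both together, with the same control alignment for all 3, from which the IDR list was derived. The build is ce11 per the labels, which has the WBcel235 coordinates used here. The aligner, the peak caller and the IDR threshold are each not given in the sources used here, and peak lists do not show read depth. The deposited signal is the authors' own value per peak on an unstated scale, used to rank peaks within a list. The −log10 q-value of each peak is as deposited. No level was compared across lists.

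The replicate 1, replicate 2, pooled and IDR lists held 30000, 22618, 26004 and 1042 peaks as deposited. The 17 mitochondrial peaks among those of replicate 2 were left out. Position classes followed Ensembl release 115 in the order promoter, exon, intron, outside, using protein-coding genes only, and non-coding genes may therefore lie outside. E-box hexamers were searched on both strands. Shares carry exact (Clopper-Pearson) and differences Newcombe 95% intervals, which cover counting error over peaks only. A difference was called when its interval left out 0, and intervals were not adjusted for the number of comparisons.

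The members and gene lists were chosen with earlier results of these data known. Genes named are the nearest to the 20 strongest weak shared peaks and to the 10 with the best worse replicate rank, up to 4 per list, and lin-32, hlh-2, unc-86 and mec-3. Other genes, such as cya-1, wee-1.3, gpb-1, myrf-2 and apl-1, were named after their values were seen, and not all are marked so above. The comparison between ranks 2000 and 2500, the shared peaks of the second 1000 ranks, the exon share against other pooled peaks, the other E-box classes, the motifs GAGAGA and CACACA and the tRNA share were added after seeing the data. Another 19 settings were tried, and the procedures were tested on simulated data. The software was numpy 2.4.6, pandas 2.3.3, scipy 1.17.1 and matplotlib 3.10.9 under Python 3.11.15.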

Additional observations from a re-analysis of the deposited data

How the results depend on the processing

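Over 20 alternatives, 125 of 176 recomputed values kept their direction and their side of the threshold, or stayed within 1.5 times the count. The lower hexamer share against IDR peaks did so in 14 of 14, from -28.3 to -13.1 points. The value of -13.1 was against the 433 weaker IDR peaks by signal, of which 25.9% held a hexamer. The intron difference from IDR peaks also kept its side in 14 of 14, with an interval that included 0 each time. No paired analysis was possible because there is only 1 group. Depth is not known from these lists, so it sets no limit that can be given here.

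The number of weak shared peaks and of genes with one moved most: 126 peaks and 94 genes with a summit distance of 50 bp, 583 and 411 with 250 bp, 12 and 12 with the 3000 strongest peaks of each replicate, 748 and 512 with the 8000 strongest, 53 and 46 below pooled rank 3000, and 699 and 560 outside the IDR set at any rank. There were 2620 to 2720 peaks at 1657 genes when a match in a single replicate was enough. Each of these sets still held all 212 weak shared peaks.

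Other values that changed side are given in percentage points, and their causes were not tested. With a summit distance of 50 bp the outside difference from IDR peaks was -7.21 and its interval included 0. With the 3000 strongest peaks, only 12 remained: the differences from IDR peaks were 4.06 for exons, -11.97 for outside and 4.21 for X, those from other pooled peaks -3.41 for the hexamers, 8.21 for promoters and -15.5 for exons, and the hexamer gain over flanks was 0.0. With the 8000 strongest, the promoter difference from IDR peaks was -10.7, that from other pooled peaks 2.98, and that for a near IDR summit 2.01. Below rank 3000, the differences from IDR peaks were 2.29 for promoters, 5.16 for exons and 1.86 for X, and those from other pooled peaks -1.57 for hexamers and 5.92 for a near IDR summit. Outside the IDR set at any rank, the hexamer difference from other pooled peaks was 5.65 and the gain over flanks 11.4. Without peaks that have a stronger summit within 500 bp, the X difference was 0.471. With narrower promoters the promoter difference from IDR peaks was -7.98, and with wider ones the outside difference was -3.96 and the promoter difference from other pooled peaks 5.71. With a hexamer window of 100 bp the difference from other pooled peaks was -2.04. Against other pooled peaks up to rank 3500 the promoter difference was 5.55, and up to rank 2500, chosen after seeing the data, 1.59, with -3.13 for exons.

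The last change was to accept a match in a single replicate. The differences from IDR peaks then ran from -16.99 to -11.9 for promoters and from -5.12 to -4.37 for X. Those from other pooled peaks ran from -1.303 to 1.40 for hexamers, -3.42 to 7.62 for promoters, -8.86 to 3.39 for exons and 0.575 to 1.07 for a near IDR summit.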
